A study of Mus musculus with 14 samples.

Results

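The Hippo pathway limits the activity of YAP (gene Yap1) and TAZ (gene Wwtr1), a pair of transcriptional coactivators that do not bind DNA themselves and act through the DNA-binding TEAD proteins. The kinases LATS1 and LATS2 phosphorylate YAP and TAZ, which keeps them in the cytoplasm and promotes their degradation. In fibroblasts, YAP and TAZ are active in spread, proliferating cells. The data describe where the promoter mark H3K4me3 (trimethylated lysine 4 of histone H3) and putative enhancers lay around 10 genes of this pathway. These were the coactivator genes Yap1 and Wwtr1, the TEAD genes Tead1, Tead2, Tead3 and Tead4, the kinase genes Lats1 and Lats2, Amotl2, which encodes an angiomotin family protein that binds YAP, and Vgll3, which encodes a cofactor that binds TEADs. They were chosen by name out of 21938 protein-coding genes and not by a measured value, though earlier results of these data were known at the time. H3K4me3 is found at CpG-rich promoters and active genes, and it is deposited by KMT2 and SET1 complexes of which ASH2L is a core subunit.

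Chromatin immunoprecipitation and sequencing for H3K4me3 was performed in iMEF cells, an immortalised mouse embryo fibroblast line. In all groups, controls included, the floxed Ash2l alleles had been deleted by Cre-ER and 4-hydroxytamoxifen, and the cells lived on a lentiviral human ASH2L with an N-terminal FKBP12F36V tag that the compound dTAG directs to degradation; single clones were selected after the deletion, and the study names the clone NG3 for these data. Of 14 libraries, 12 were H3K4me3 libraries, 2 for each of 6 groups, namely cells without dTAG and cells given dTAG for 30 min or for 2, 4, 8 and 16 h. The remaining 2 were input libraries, 1 without dTAG and 1 from 16 h. The study describes the 2 libraries of a group as biological replicates, all of 1 clone.

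Only positions were used. The peak list held 25431 regions that the authors united over all samples, 25357 of them on chromosomes 1 to 19, X and Y. The enhancer list held 32965 putative enhancers of control cells, called by the authors where H3K4me1 and H3K27ac met open chromatin away from transcription start sites (TSSs). Some of them still lay near a start by the annotation used here, since 74 of the 81 enhancers counted below kept 1 kb from every GENCODE TSS. Neither list gives a height or a value per library. The depth reached by each library is therefore unknown here, though the study gives a planned minimum of raw reads. No replicate error exists for any value below and no test over samples could be made. The effect of dTAG on these genes was not analysed here. A listed peak says that H3K4me3 was called in at least 1 group, not in which. All 12 fibroblast markers examined, among them Col1a1, Pdgfra and Vim, had a promoter peak. Of 14 markers of epithelial, blood, endothelial, liver, muscle, neural and pluripotent cells, 2 had one, the epithelial genes Epcam and Cdh1, with widest peaks of 602 to 724 bp.

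Peaks were assigned to a promoter when any base lay at most 1 kb from a GENCODE start of that gene. By this count 9 of the 10 genes had at least 1 promoter peak, and Lats1 was the exception. Over all protein-coding genes the share was 59.1%. The 10 genes mostly had CpG-rich promoters, meaning that more than 50% of bases were G or C and that CpGs reached over 0.6 of the number expected from base composition (the CpG ratio), over 500 bp on either side of the main TSS. This held for 9 of them, all but Tead2, whose CpG ratio was 0.586. Of all CpG-rich protein-coding promoters, 93.6% had a peak, so the count of 9 of 10 lay near the level of genes with like promoters. The main TSS is the most upstream coding GENCODE start that also lies within 100 bp of a RefSeq start.

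The stretches before the RefSeq start of Wwtr1 (chr3:57575911-57576160, minus strand) and Vgll3 (chr16:65814939-65815188, plus strand) show what such promoters look like. They are 250 bases of GRCm38.p6 from RefSeq, written 5′ to 3′ in the direction of the gene, and neither overlaps an exon. Capitals mark CpG dinucleotides, of which Wwtr1 holds 18 and Vgll3 holds 16. The Vgll3 stretch lay wholly under a peak, and 67.6% of the Wwtr1 stretch did.
Wwtr1 promoter: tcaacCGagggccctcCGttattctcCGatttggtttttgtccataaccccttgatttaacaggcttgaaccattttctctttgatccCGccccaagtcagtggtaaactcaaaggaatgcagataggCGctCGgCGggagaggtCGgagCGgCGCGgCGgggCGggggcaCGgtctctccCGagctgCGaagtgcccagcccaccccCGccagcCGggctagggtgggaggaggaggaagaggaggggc
Vgll3 promoter: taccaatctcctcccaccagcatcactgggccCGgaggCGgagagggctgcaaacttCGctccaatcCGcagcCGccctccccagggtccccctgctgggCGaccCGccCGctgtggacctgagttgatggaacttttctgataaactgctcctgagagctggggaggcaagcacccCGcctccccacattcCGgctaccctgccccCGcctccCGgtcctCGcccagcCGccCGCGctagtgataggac

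TEAD proteins bind a short element with the core GGAATG, on the other strand CATTCC. This motif was present in RefSeq promoters, 250 bases before to 50 after the start, of 6 of the 8 genes with an entry in the promoter table. Over 16522 protein-coding genes with an entry, 15.2% held it in at least 1 promoter, and over 7899 with a CpG-rich promoter 12.3% did. The Wilson interval of the 6 of 8 was wide, from 40.9 to 92.9%. Related genes also lay above the share of all genes, with 8 of 16 YAP and TAZ target genes (50.0%) and 8 of 26 upstream regulators (30.8%). Amotl2 and Lats2, which hold the motif, are counted both among the targets and among the 10 genes, while the regulators share no gene with the 10. The motif was thus not particular to the 10 genes. The longer GGAATGT was found at 4 of the 8 genes, against 3.95% of all and 4 of 16 target genes, with Amotl2 again in both counts. The 6 genes were Yap1, Wwtr1, Tead3, Lats2, Amotl2 and Vgll3, and neither Tead2 nor Lats1 had a match. Tead1 and Tead4 had no entry. That promoters were searched at all was decided with other values in view, a match is a run of letters and not a bound site, and genes with several entries, such as Tead3, had more sequence to match.

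The matches are shown in 30 bases each of the gene's strand, with the motif in capitals. The stretches are Yap1 chr9:8004720-8004749 (minus), Wwtr1 chr3:57576029-57576058 (minus), Tead3 chr17:28350970-28350999 (minus), Lats2 chr14:57746102-57746131 (minus), Amotl2 chr9:102717727-102717756 (plus) and Vgll3 chr16:65815114-65815143 (plus).
Yap1: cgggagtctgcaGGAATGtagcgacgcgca
Wwtr1: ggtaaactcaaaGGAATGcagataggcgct
Tead3: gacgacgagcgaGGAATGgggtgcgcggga
Lats2: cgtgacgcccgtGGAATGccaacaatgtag
Amotl2: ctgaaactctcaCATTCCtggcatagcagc
Vgll3: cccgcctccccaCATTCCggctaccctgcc

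In Yap1 the motif began at -141 counted from the RefSeq start, and in Wwtr1 at -136 counted from the more upstream of 2 RefSeq starts. In Amotl2 and Vgll3 it began at -65 and -63, and there it read CATTCC on the gene's strand. Tead3 held the most, with a match at -182 from 1 start and 3 more around the starts downstream of it. In Lats2 the match lay 4 bases past the start. In 5 of the 6 genes the match shown overlapped an H3K4me3 peak. The exception was Amotl2, whose match lay in a gap between peaks.

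The widest promoter peak of the 9 genes had a median width of 2012 bp, with quartiles of 1889 and 2580 bp. Over the 12966 protein-coding genes with a promoter peak the median was 1255 bp (quartiles 908 and 1710 bp), and over those with CpG-rich promoters it was 1334 bp. All 9 genes lay above the median of all genes, from Lats2 with 1534 bp to Amotl2 with 3476 bp. The median was 2493 bp over the fibroblast markers and 2465 bp over the YAP and TAZ target genes described below. Wide promoter peaks were therefore not particular to the 10 genes. Together the 9 genes had 14 promoter peaks. More than 1 peak was listed for 4 of the 9 genes, namely Wwtr1, Tead3, Lats2 and Amotl2, and for 40.3% of all genes with a peak. No promoter peak of the 10 genes overlapped a putative enhancer. The definitions largely set this in advance, since the authors called enhancers away from TSSs and promoter peaks lie near them.

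**Figure D1:**
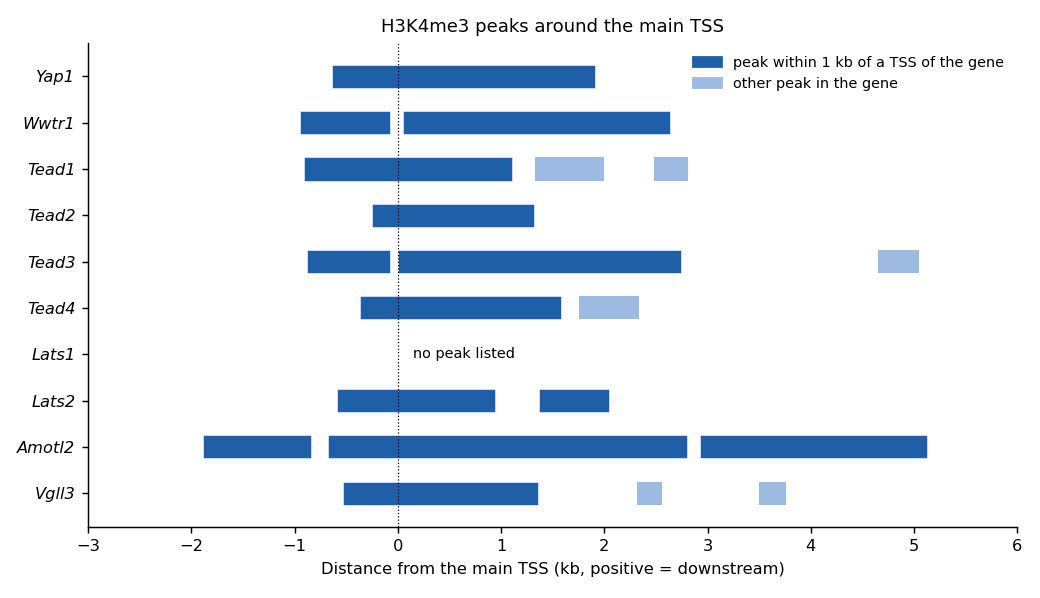
H3K4me3 peaks of the 10 genes by distance from the main TSS (x axis, kb, positive values downstream), 1 row per gene; dark bars are promoter peaks and light bars are other peaks in the gene. Peaks reached farther downstream than upstream in all 9 genes with a peak, Amotl2 spanned 7016 bp, and Lats1 had none.

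Yap1 had a single peak (chr9:8002684-8005230) of 2547 bp, wider than those of 93.7% of genes with a peak. It ran from 634 bp upstream to 1912 bp downstream of the main TSS, and 6 of the 7 annotated Yap1 TSSs lay within 1 kb of it. The start of the neighbouring noncoding gene Gm45494 also lay in this peak, so the signal there cannot be told apart between them. Wwtr1 had a peak of 2580 bp (chr3:57573279-57575858) downstream of its TSS and one of 869 bp (chr3:57575992-57576860) upstream. The 133 bp between them held the main TSS, so the coactivator pair had peaks of nearly the same width, wider than 93.7% and 94.1% of genes, in a different arrangement.

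Among the TEAD genes, Tead3 had the widest single peak and Tead2 the narrowest. With peaks merged within 1 kb, Tead1 was widest with 3725 bp, followed by Tead3 with 3619 bp, and Tead2 stayed narrowest. The Tead3 peak of 2739 bp (chr17:28348078-28350816) was wider than 95.4% of genes. A second peak of 801 bp (chr17:28350896-28351696) lay upstream, and the 79 bp between the pair held the main TSS, as in Wwtr1. Tead1 had a peak of 2012 bp (chr7:112678407-112680418), wider than 84.4% of genes, which also held a start of the noncoding gene 2310014F06Rik. Only 4 of the 13 annotated Tead1 TSSs lay within 1 kb of a peak, and the others lay inside the long gene without one. Tead4 had a peak of 1945 bp (chr6:128299246-128301190), wider than 82.6% of genes, near 3 of its 4 TSSs. The Tead2 peak of 1574 bp (chr7:45215501-45217074) was wider than 69.2% of genes, near 11 of 16 TSSs, at the one promoter of the 10 genes that was not CpG-rich.

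Lats2, which encodes the kinase that phosphorylates YAP and TAZ together with LATS1, had peaks of 1534 bp (chr14:57745182-57746715) and 677 bp (chr14:57744077-57744753), 428 bp apart. The wider one exceeded 67.3% of genes and was the narrowest of the 9, although its sequence had a CpG ratio of 1.03. It also held a start of Gm49361, a gene that overlaps Lats2. With peaks merged within 1 kb, Lats2 reached 2639 bp and was no longer the narrowest, Tead2 having 1574 bp. The most upstream annotated Lats2 start had no peak within 1 kb, and 5 of 8 starts did.

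Amotl2, itself counted among YAP and TAZ targets, stood at the other end. It had 3 peaks of 1045 bp (chr9:102716541-102717585), 3476 bp (chr9:102717750-102721225) and 2198 bp (chr9:102721359-102723556), separated by 164 and 133 bp. The widest exceeded 98.5% of genes, and the summed width of 6719 bp exceeded 99.8%. The CpG ratio fell along these peaks from 0.542 and 0.513 in the first and the second to 0.205 in the last, which began 2930 bp downstream of the main TSS and held 2 further annotated Amotl2 starts. Vgll3 had 1 promoter peak of 1889 bp (chr16:65814725-65816613), wider than 81.0% of genes. Merged within 1 kb with further peaks in the gene, it reached 4290 bp, wider than 97.2% of genes after the same merging.

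In all 9 genes the promoter peaks reached farther downstream than upstream of the main TSS. This was also so for 81.3% of protein-coding genes with a peak. The downstream reach ran from 1100 bp in Tead1 to 5127 bp in Amotl2, and the upstream reach from 252 bp in Tead2 to 1888 bp in Amotl2. Inside the 10 genes, 13 further peaks were listed more than 1 kb from the gene's own TSSs, 6 of them in Tead1. They were 200 to 663 bp wide, and 5 of them overlapped a putative enhancer, in Wwtr1, Tead1 and Tead4.

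**Figure D2:**
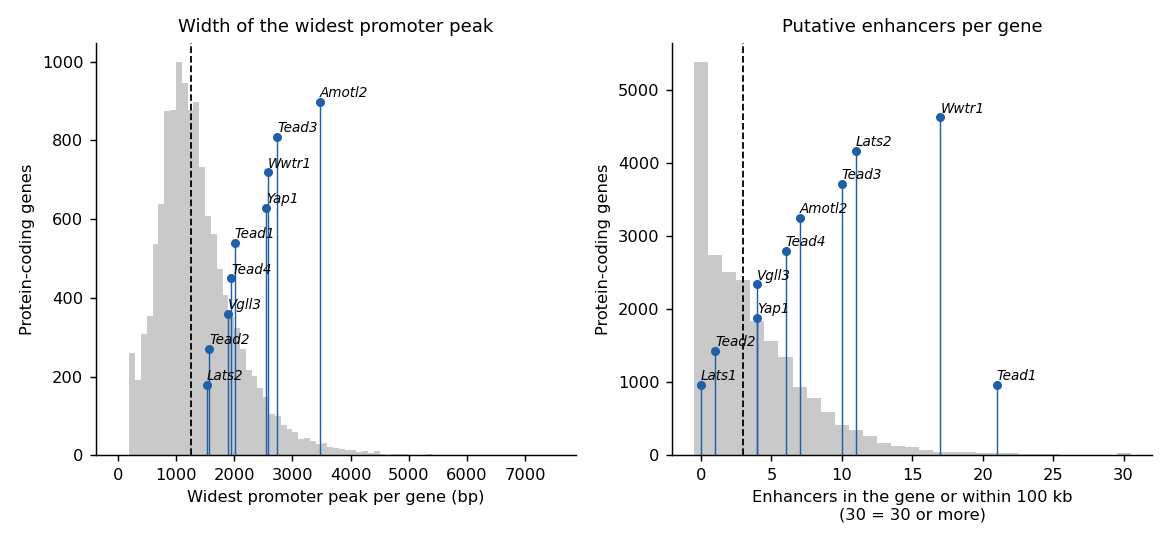
Left, the widest promoter peak of each of 12966 protein-coding genes with a peak (grey histogram, bp); right, the putative enhancers in each of 21938 protein-coding genes or within 100 kb (grey histogram, counts of 30 or more drawn at 30). Blue stems place the named genes on the x axis, their heights are for legibility only, and dashed lines mark the medians of 1255 bp and 3 enhancers; all 9 genes with a peak lie right of the left line and 8 of the 10 genes right of the other.

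Lats1 had no peak within 1 kb of either of its 2 annotated TSSs, and no putative enhancer in the gene (chr10:7681214-7716460) or within 100 kb. Its promoter was strongly CpG-rich, with a GC content of 71.5% and a CpG ratio of 0.914. The gap was not local to Lats1. No peak was listed over 567272 bp (chr10:7212712-7779983), in which lay 6 protein-coding genes with 4 CpG-rich promoters, those of Lrp11, Pcmt1, Lats1 and Katna1. The median distance between neighbouring peaks was 24674 bp, and 849 of 25336 such stretches were wider than this one. At least 4 CpG-rich protein-coding promoters without a peak lay in 19 of them. No enhancer was listed over 550305 bp (chr10:7290722-7841026), and the nearest lay 160460 bp from the Lats1 main TSS.

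The sequence of this region stands in the assembly more than once. GRCm38.p6, the build the authors aligned to, carries 65 fix patches, which are corrected copies of chromosome stretches. On one of them RefSeq places 7 protein-coding genes again, Lats1 among them. Of these, 6 had no promoter peak, and Ginm1 had one. The patch of 355613 bases aligned in blocks within chr10:7346541-7776389 with 99.96% identity, and the list held 0 peaks and 0 enhancers in the aligned span. Of 1952 windows of 50 bases around the Lats1 main TSS (1 kb on either side), 1952 occurred unchanged on the patch, as did all 35198 such windows of the gene. The peak list also held 74 peaks on 26 sequences other than the chromosomes, so the aligned reference was not limited to chromosomes. Whether any of these sequences is a fix patch was not determined. None of the 74 lay within 1 kb of the coordinate that the Lats1 start has on the patch. This compared coordinates only, not sequence names, so it does not show whether the patch was in that reference.

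A like difference ran across the genome. Of 112 protein-coding genes with CpG-rich promoters that RefSeq places on a fix patch too, 5 had a promoter peak, which is 4.46% (95% Wilson interval 1.92 to 10.0%). Of 9700 such genes on no fix patch, 94.7% had one. Enhancers lay inside 2.68% of the former and 34.8% of the latter. Genes with a copy only on a scaffold of another mouse strain, as Tead3 has, did not share this pattern, since 94.8% of 348 had a peak. Lats1 was the only one of the 10 genes on a fix patch, and no gene of the other lists was. Whether reads from Lats1 were discarded because they matched both copies was not tested, since no reads were analysed here. The missing peak therefore does not show that the Lats1 promoter lacked H3K4me3. Among the 9 genes on no fix patch, 9 had a promoter peak and 9 an enhancer, by construction, since leaving out patch genes drops only Lats1. The neighbours of Lats1 and the patches were examined after the missing peak had been seen.

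**Figure D3:**
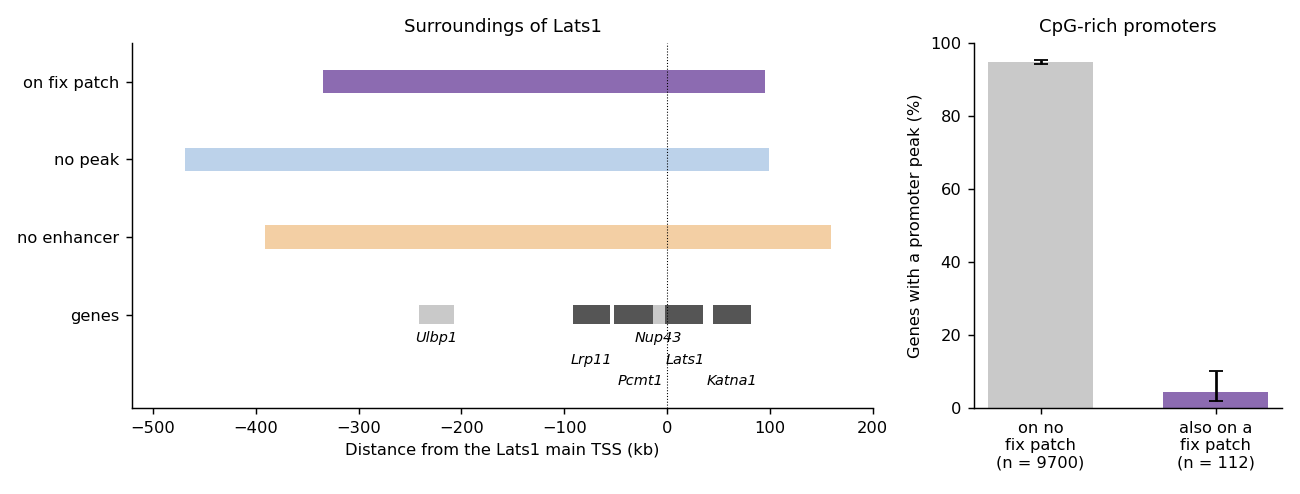
Left, stretches around Lats1 by distance from its main TSS (x axis, kb): the span of 429849 bp within which the fix patch aligned in blocks (354015 aligned bases, unaligned parts drawn too), the stretch without a listed peak, the stretch without a listed putative enhancer, and the protein-coding genes (dark where the promoter is CpG-rich). Right, the percentage of genes with CpG-rich promoters that have a promoter peak, 94.7% of 9700 genes on no fix patch and 4.46% of 112 genes also on one; error bars are 95% Wilson intervals.

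Putative enhancers lay in or within 100 kb of 9 of the 10 genes, all but Lats1. Over all protein-coding genes the share was 75.5%, and over those with CpG-rich promoters it was 88.3%, near that of the 10 genes. There were 81 such enhancers, of which 38 lay in 6 of the genes themselves. The median was 6.5 per gene against 3 for all protein-coding genes, and per 100 kb searched it was 2.70 against 1.00. Other sets lay closer to the 10 genes. The median was 4 (1.47 per 100 kb) for genes with CpG-rich promoters, 6 for the upstream regulators described below, 6 for the fibroblast markers and 5 (1.99 per 100 kb) for the markers of other cell types, most of which had no promoter peak. A number of enhancers above that of all genes was therefore not particular to the 10 genes. The counts ranged from 0 at Lats1 and 1 at Tead2 to 17 at Wwtr1 and 21 at Tead1.

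**Figure D4:**
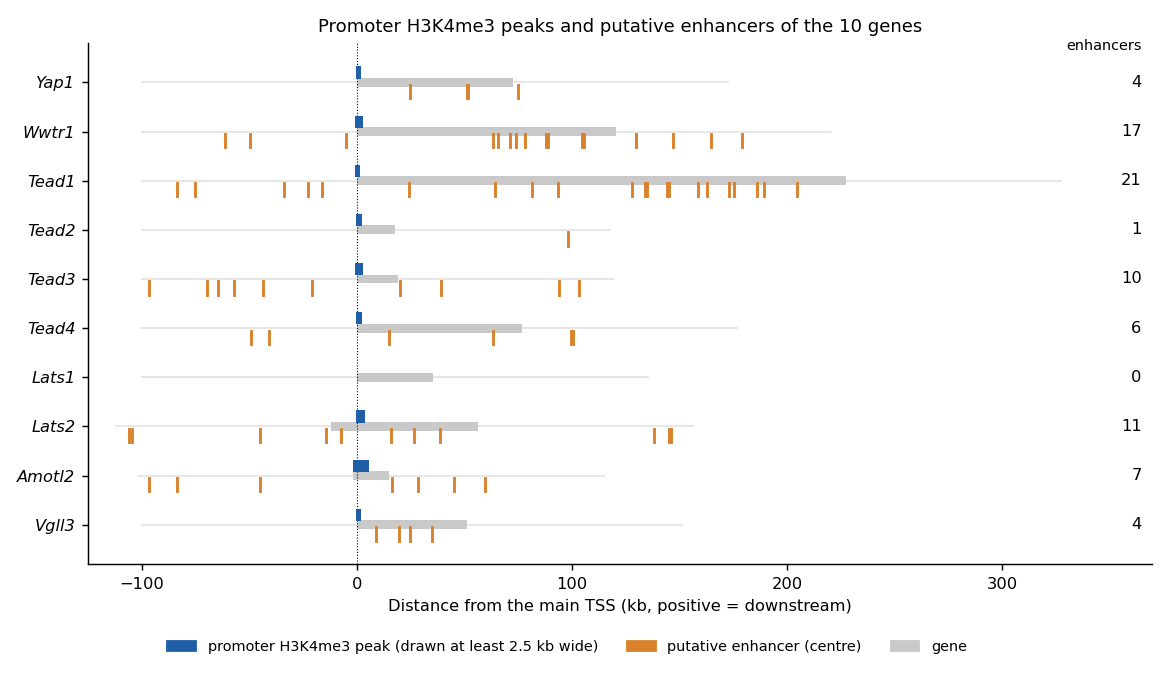
The 10 genes (grey bars) aligned at their main TSS (x axis, kb, positive values downstream), with promoter H3K4me3 peaks in blue and centres of putative enhancers in orange; thin lines show the 100 kb searched on either side, and the number at the right counts the enhancers. Wwtr1 and Tead1 hold 17 and 21, mostly inside the gene, Vgll3 has 4 inside the gene and none outside, and Lats1 has none.

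Tead1 had 21 enhancers, more than 99.3% of protein-coding genes, and 16 lay in the gene. For 19 of the 21, the nearest coding TSS was one of Tead1. Its run with the most enhancers (chr7:112837629-112869127) held 6, and none of these overlapped a peak. Of all 21, 3 overlapped a peak, among them one in the gene at chr7:112806826-112807592. Wwtr1 had 17 enhancers, more than 98.5% of genes. Of these, 9 lay in the gene, and 7 formed a run between chr3:57486979 and chr3:57512794. Only 5 of the 17 had Wwtr1 as the nearest coding gene by TSS, and the nearest start of many others was that of Tm4sf4 at the far end of Wwtr1. The closest enhancer to the Wwtr1 TSS (chr3:57580899-57581035) lay 5057 bp upstream of it.

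Yap1, the other coactivator gene, had 4 enhancers, of which 3 lay in the gene and none upstream of the TSS. All 4 had Yap1 as the nearest coding gene, and the closest to the main TSS was 24864 bp away. Vgll3 likewise had 4, all inside the gene, between 8877 and 34975 bp downstream of the TSS. Lats2 had 11 enhancers with 4 in the gene, which 3 of these share with the overlapping Gm49361. The widest (chr14:57759801-57761314) measured 1514 bp and lay 14434 bp upstream of the main TSS. Amotl2 had 7 and none in the gene. Of these, 5 had Amotl2 as the nearest coding gene, and the widest, of 1728 bp (chr9:102733792-102735519), lay just past the gene's end, 16226 bp from the main TSS.

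The enhancers around Tead2 and Tead3 all had another nearest coding gene. None of the 10 enhancers around Tead3 lay in the gene or had Tead3 as the nearest coding gene by TSS, and several lay in Fkbp5 or Ppard. The only one in reach of Tead2 lay in Trpm4, 98035 bp away. Tead4 had 6, with 2 in the gene, and for 2 the nearest coding TSS was one of Tead4. Nearness is not assignment, since no contact between an enhancer and a promoter was measured.

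In the enhancers the TEAD motif lay near its level over all enhancers. GGAATG on either strand occurred in the central 300 bases of 19 of 81 enhancers, which is 23.5% (95% Wilson interval 15.6 to 33.8%), against 22.5% of all 32965. TGACTCA, the element of AP-1 factors such as JUN and FOS, occurred in 12 of 81, or 14.8%, against 17.2%. Both motifs met in 2 of 81, or 2.47%, against 3.86%. The longer GGAATGT was present in 13.6% against 7.61%, a larger difference than for the shorter letters, and no test was made. The windows printed next have the most TEAD matches among enhancers in reach of their gene, tied at Wwtr1 with another (chr3:57428404-57429646) in Tm4sf4, and none of the 300-base windows printed here overlaps an exon.

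The windows shown are those in reach of Amotl2 (chr9:102673417-102673716), Wwtr1 (chr3:57396828-57397127), Tead1 (chr7:112854548-112854847) and Lats2 (chr14:57760408-57760707), read on the plus strand of GRCm38.p6 with GGAATG and CATTCC in capitals. The window near Amotl2, 44863 bp upstream of the main TSS, is the one with 2 matches of either motif, and its 2 AP-1 elements stand in lower case as tgactca. The window in reach of Wwtr1 is intergenic, 178933 bp downstream of the main TSS, and its nearest coding TSS is that of Tm4sf4, 28337 bp away. Its 2 matches overlap by 1 base. In the Lats2 window the matches lie on opposite strands, with CATTCC before GGAATG.
Amotl2 enhancer: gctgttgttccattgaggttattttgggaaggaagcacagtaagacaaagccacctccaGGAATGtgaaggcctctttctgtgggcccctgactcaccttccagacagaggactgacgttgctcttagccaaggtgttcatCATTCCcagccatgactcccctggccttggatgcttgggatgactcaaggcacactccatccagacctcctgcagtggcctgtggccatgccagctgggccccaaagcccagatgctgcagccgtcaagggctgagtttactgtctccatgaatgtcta
Enhancer in reach of Wwtr1: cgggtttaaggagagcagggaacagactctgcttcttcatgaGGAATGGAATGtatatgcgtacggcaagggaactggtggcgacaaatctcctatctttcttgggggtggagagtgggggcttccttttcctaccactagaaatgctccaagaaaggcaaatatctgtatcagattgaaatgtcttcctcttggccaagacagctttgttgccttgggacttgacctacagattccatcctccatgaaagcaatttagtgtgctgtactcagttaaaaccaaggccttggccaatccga
Tead1 enhancer: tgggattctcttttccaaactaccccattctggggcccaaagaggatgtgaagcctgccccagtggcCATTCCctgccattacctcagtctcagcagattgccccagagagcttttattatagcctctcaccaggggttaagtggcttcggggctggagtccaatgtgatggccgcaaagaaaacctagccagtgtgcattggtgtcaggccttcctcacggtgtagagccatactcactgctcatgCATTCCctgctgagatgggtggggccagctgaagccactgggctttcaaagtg
Lats2 enhancer: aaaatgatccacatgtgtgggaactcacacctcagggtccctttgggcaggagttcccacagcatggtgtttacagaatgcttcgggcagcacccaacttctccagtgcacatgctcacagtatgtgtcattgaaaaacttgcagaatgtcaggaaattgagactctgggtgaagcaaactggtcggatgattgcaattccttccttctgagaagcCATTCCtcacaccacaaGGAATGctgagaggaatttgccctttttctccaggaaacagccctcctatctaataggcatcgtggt

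Genes that act on the pathway from above were marked about as often as the 10 genes. The share with a promoter peak was 59.1% over all protein-coding genes. It was 93.6% over those with CpG-rich promoters, which 28 of the 35 regulators counted here had. Of 35 upstream regulators (kinases such as STK3 and STK4, their scaffolds, junction proteins and VGLL cofactors), 34 had a promoter peak, and the median of their widest peaks was 1700.5 bp. The one without was Vgll1, a TEAD cofactor known from epithelia and placenta, at a CpG-poor promoter on the X chromosome. The widest peaks were those of the atypical cadherins Fat1 with 4338 bp and Fat4 with 4061 bp, and of the phosphoprotein-binding adaptor Ywhaz with 3614 bp. The narrowest was that of Dchs1, the cadherin ligand of FAT4, with 213 bp. The most enhancers in reach, 14 each, were counted at Frmd6, Ptpn14 and Ctnna1.

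Target genes of YAP and TAZ were all marked. The list of 23, which contains Amotl2 and Lats2 and shares Ptpn14 with the regulators, had 23 with a promoter peak. CpG-rich promoters, of which 93.6% had a peak over all protein-coding genes, were held by 17 of the 23. The median of the targets' widest peaks was 2465 bp and the median number of enhancers in reach was 11, against 1255 bp and 3 for all protein-coding genes. Genes with CpG-rich promoters had medians of 1334 bp and 4. All 12 fibroblast markers had a promoter peak, with medians of 2493 bp and 6, so neither the marking nor the peak width was particular to the targets. Arhgef17 had a peak of 7417 bp, which is the widest of any protein-coding gene here. Ajuba, a LIM protein that binds LATS kinases, followed with 5061 bp, and Ccn1, a matricellular protein and a classical YAP target, with 4045 bp. The narrowest was at Ankrd1, another classical target, with 285 bp, although 10 enhancers lay in reach. Rbms3 had 35 enhancers, Asap1 28 and Crim1 24.

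**Figure D5:**
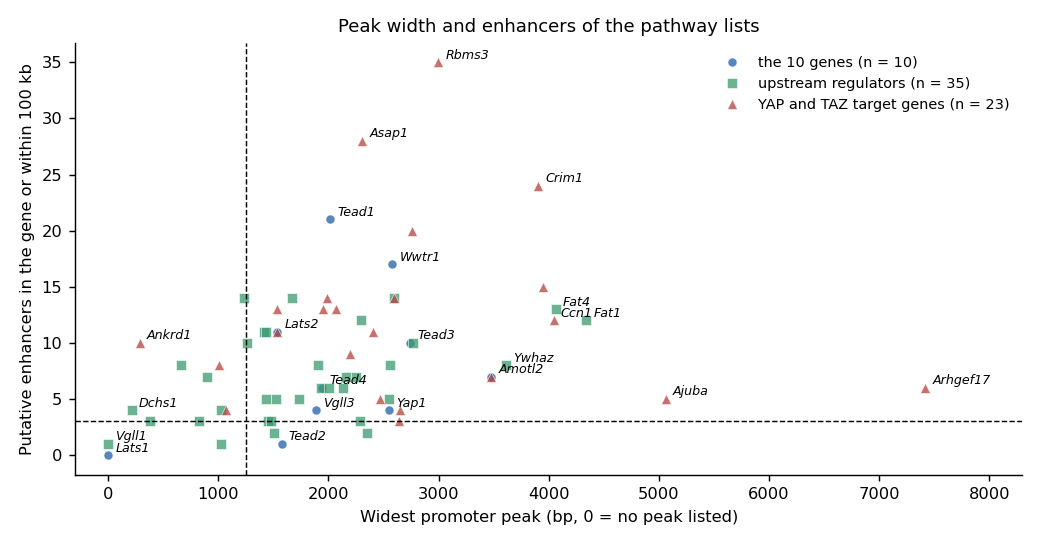
Widest promoter peak (x axis, bp, 0 where none is listed) and putative enhancers in the gene or within 100 kb (y axis) of the 10 genes (circles), 35 upstream regulators (squares) and 23 YAP and TAZ target genes (triangles; genes in more than one list are drawn in each). Dashed lines mark the medians of all protein-coding genes, 1255 bp and 3 enhancers; 8 of the 10 genes lie above both lines, and Lats1 and Vgll1 sit at 0 bp.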

How the data were processed

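Per the labels and the methods, the authors trimmed the reads, aligned them with BWA to mm10 (GRCm38.p6), filtered them with SAMtools, merged replicates and called narrow H3K4me3 peaks with MACS. The 2 deposited files hold region positions only, with no count, signal or score and no column of a single sample. Starts were read as counting from 0 in the peak list, whose end minus start was most often 200, and from 1 in the enhancer list, where it was most often 199. Positions here count from 1.

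TSSs were 132629 transcript starts of GENCODE M21, sequences came from RefSeq of the same build, and the Lats1 patch was aligned with minimap2 (asm5 preset). Overlaps, shares and Wilson intervals, which cover counting error only, were computed in Python 3.11.15 with pandas 2.3.3, NumPy 2.4.6 and pysam 0.24.0, with interval search and motif counts tested on simulated data. RefSeq symbols matched 20876 of 21938 coding genes in the comparison of patches. Named were the 10 genes, in each list the genes without a peak, the 3 widest, the narrowest and the 3 with most enhancers, and neighbours whose TSS lay in a promoter peak. The genes and lists were chosen with earlier results of these data known.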

Additional observations from a re-analysis of the deposited data

How the results depend on the processing

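No paired analysis was possible because regions here carry no value for any library. Over 58 alternative values, 50 stayed within 1.5 times the reported one or within its interval. The counts of genes with a promoter peak did so throughout: with 1 TSS per gene, 8 of the 10 genes had one, Lats2 losing its own since its most upstream start has no peak. Merging peaks within 1 kb left 9 promoter peaks in place of 14 and raised the median widest peak to 3582 bp, by construction, and over all genes the merged median was 1628 bp. A flank of 200 kb gave 126 enhancers with a median of 11 per gene (all protein-coding genes: 6), and gene bodies alone gave 38 with a median of 2.5 (all protein-coding genes: 0). Over whole regions in place of 300 bases, 35.8% of the enhancers held GGAATG against 32.3% of all, and GGAATGT in 300 bases was held by 13.6% against 7.61%. The restriction to genes on no fix patch, chosen after seeing the data, gave a median of 7 enhancers. It drops only Lats1, so its other values, which are counted among the 58, could not change. Since the depth of each library is unknown and the peaks are united over all groups, no value bears on time after dTAG. Nor does any value bear on peak height or on how often a call recurs.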

Other observations

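Other stretches of the peak list resembled that of Lats1. Between neighbouring peaks there were 34 stretches with at least 3 CpG-rich protein-coding promoters without a peak, and in 21 of them at least 3 of these genes also stood on a fix patch. Such stretches held genes of many kinds. Examples are Atp5a1, Ppp1ca, Srsf1, Sf1, Mat2a and Jund, which encodes a JUN family subunit of AP-1, but also Nrxn2, Foxd3 and Celsr3. In 12 of the 34 none of the genes with a CpG-rich promoter without a peak stood on a fix patch. Examples are the stretches with Hoxb5, Hoxb6, Hoxb7 and Hoxb9 and with Hoxc8, Hoxc11, Hoxc12 and Hoxc13. Others held Scube1 or Bmp7. These genes were picked after the lists had been seen.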
